A study of Mus musculus with 22 samples.

Results

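The footprints of hnRNP A1 on 8 long noncoding RNA genes of the mouse spinal cord were examined: Malat1, Neat1, Miat, Meg3, Rian, Mirg, Snhg11 and Snhg14. They were chosen by name, and a footprint was counted for a gene when it overlapped the annotated span of that gene by at least 1 nt. They were 8 of 55450 annotated genes and held 928 of 136207 footprints. CLIPseq had been run with an antibody against hnRNP A1 on UV-crosslinked, RNase-treated spinal cord of 10 female C57Bl/6 mice. Naïve mice (n = 3) were of matched age and were not immunised. Experimental autoimmune encephalomyelitis (EAE), an inflammatory demyelinating disease used as a model of multiple sclerosis, was induced in 7 mice by immunisation with a myelin peptide, MOG(35-55), emulsified with CFA (complete Freund's adjuvant), together with pertussis toxin, at 12 weeks of age by the treatment protocol and 8 weeks by the design text. EAE mice were taken 15 days after clinical onset, and were grouped by clinical score into mild EAE (scores 1.0 to 1.5, n = 3) and severe EAE (scores 2.5 to 3.0, n = 4). No transgene or other agent was named for any group, and the values below are from 1 list per mouse. Nothing in the mouse numbers pairs animals across groups, and a p-value here measures the spread between these mice.

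hnRNP A1 is a mainly nuclear protein that binds UAG-containing RNA and takes part in splicing. Malat1, Neat1 and Miat are nuclear-retained RNAs: Malat1 gathers in nuclear speckles, Neat1 builds paraspeckles, and Miat forms its own nuclear domains in neurons. Meg3, Rian and Mirg come from the imprinted Dlk1-Dio3 locus, where Rian carries box C/D small nucleolar RNAs (snoRNAs) in its introns and Mirg carries microRNAs, and Snhg11 and Snhg14 are snoRNA host genes of neurons, Snhg14 also running towards Ube3a on the opposite strand.

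A footprint here is a genomic interval with a start and an end only, so the measure was the number of nt of a gene that were covered in a mouse. No read count stands behind it, and the read depth of each footprint is unknown. For whole libraries the authors report the depth and describe it as similar among samples. The lists differed in length, and the part of library depth in that was not tested. The naïve mice had 17119 to 17494 footprints, the mild EAE mice 9751 to 24433, and the severe EAE mice 2670 (mouse 1), 209 (mouse 2), 31870 (mouse 5) and 673 (mouse 6). The study's authors describe severe EAE mouse 5 as an outlier of its group, with a binding profile like that of naïve and mild EAE mice. By their account it had been in remission shortly before the experiment ended. The 8 genes took between 0.428% and 1.22% of all covered nt of a mouse, and their summed covered nt followed the total covered nt of the mouse closely (Pearson's r = 0.98 on the log2 scale over 10 mice, as a description of lists that share their length). Severe EAE mice 2 and 6 had 0 nt for most genes, and values are also given as a share, in nt per 10000 covered nt of the same mouse. Markers of neurons were footprinted in all mice but severe EAE mice 2 and 6. The summed coverage of the 10 neuron markers ran from 4401 to 7931 nt (naïve), from 3139 to 5187 nt (mild EAE) and from 0 to 12857 nt (severe EAE), and 8 of the 10 were lower on average in EAE, of which Syt1 and Rbfox3 had an exact permutation p under 0.05 before adjustment. The summed coverage of the 10 immune cell markers ran from 0 to 250 nt (naïve), from 1552 to 3343 nt (mild EAE) and from 0 to 4967 nt (severe EAE). Csf1r, Cd74 and C1qa were at 0 in all 3 naïve mice, and the 8 immune markers that could be tested were all higher on average in EAE, with none under 0.05. Of 8 oligodendrocyte markers 4 were higher and 4 lower in EAE, and of 6 astrocyte markers 2 were higher and 4 lower. By share, 7 oligodendrocyte markers were higher and 1 lower, and 3 astrocyte markers were higher and 3 lower. The counts of neuron and immune markers higher or lower were the same by share. Over all genes tested, 59.7% were lower in covered nt and 6.18% had an unadjusted exact permutation p under 0.05. The part of cell makeup in the results below was not tested, and in whole cord fewer cells of a type and less RNA per cell cannot be told apart.

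No member passed the test of covered nt between EAE and naïve mice. None of the 8 genes had an unadjusted p under 0.05 in the exact permutation test (two-sided, difference of group means over all 120 splits of 3 against 7 mice), against 6.18% of the 6731 genes footprinted in at least 3 mice, and none passed after Benjamini-Hochberg adjustment over those 6731 genes, of which 0 passed. The smallest p that 3 against 7 mice can give in this exact permutation test is 0.0083. Passing adjustment over 6731 genes would take many genes at that value together, so 0 passing does not show that no gene differed. In none of the 8 did the EAE and naïve groups fail to overlap (percent of genes tested whose groups did not overlap, 2.01%). On average 7 of the members were lower in EAE (percent of all genes tested that were lower, 59.7%) and Neat1 was higher, but as a share of the mouse's own list the members divided into 4 higher and 4 lower (percent of genes tested that were lower by share, 56.4%), and again 0 of the 8 had an exact permutation p under 0.05, against 7.62% of genes tested. The median difference of the members, EAE minus naïve, was -168 nt, and over all genes tested it was -26.3 nt. As a share the medians were -0.046 and -0.086 nt per 10000. None of the 7 members tested for where along the RNA the footprints fell had an exact permutation p under 0.05, and the larger shifts, in Snhg11, Mirg, Miat and Neat1, are given with each gene.

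**Figure D1:**
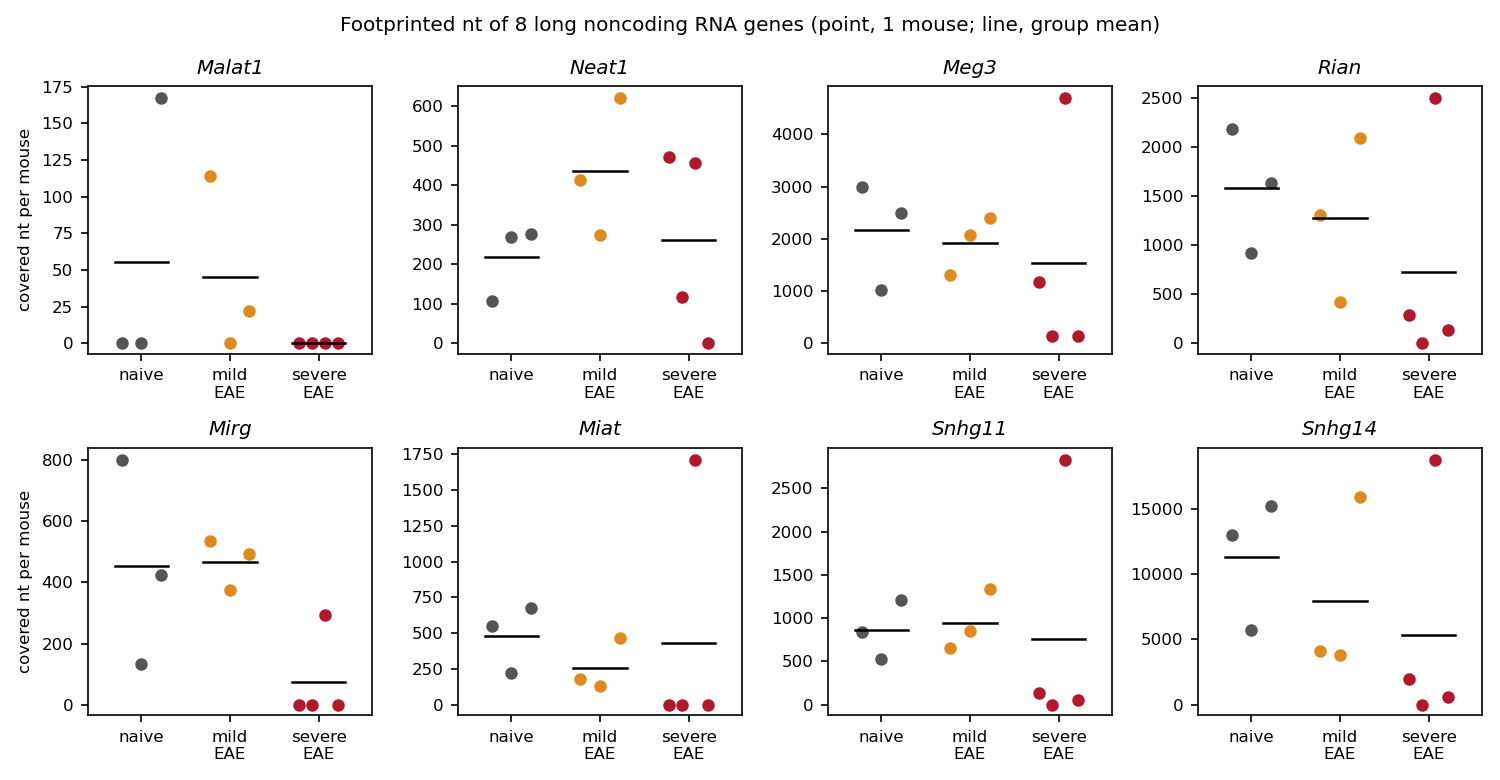
Covered nt (vertical axis, linear, one scale per gene) of the 8 long noncoding RNA genes in naïve, mild EAE and severe EAE mice; each point is 1 mouse and each line is a group mean. The groups overlap in every panel except for Mirg, where the 4 severe EAE mice (0 to 292 nt) lie below the 3 mild EAE mice (375 to 534 nt); severe EAE mouse 5 is the highest severe EAE point for all of the genes but Malat1 and Neat1.

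Relative to exon length, Meg3 and Snhg11 had the highest mean coverage of the members in naïve mice and Malat1 the lowest. In naïve mice the share of annotated exon sequence that was covered was 10.2% ± 5.70 for Meg3, 9.08% ± 5.53 for Snhg11, 5.58% ± 3.66 for Mirg, 5.18% ± 2.56 for Miat, 4.46% ± 2.54 for Rian, 3.46% ± 1.77 for Snhg14, 1.05% ± 0.46 for Neat1 and 0.797% ± 1.38 for Malat1 (SD, n = 3). Each neighbouring pair in that order differed by less than the SDs of the pair, except for Snhg14 and Neat1, where the gap exceeded both SDs. The median over all genes footprinted in a naïve mouse was 2.07% to 3.08% of exon length. In mild EAE the order at the top was reversed, with 11.1% ± 4.18 for Snhg11 and 9.92% ± 2.38 for Meg3, a difference smaller than either SD.

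Malat1, the speckle RNA, was nearly free of footprints. Its single exon (chr19:5795690-5802672, minus strand, GRCm38) held 3 footprints in all 10 mice. They covered 167 nt in naïve mouse 3, 114 nt in mild EAE mouse 3 and 22 nt in mild EAE mouse 7, and 0 nt in the other 7 mice. The 3 lay close together, between positions 4064 and 4637 of the 6983 nt counted from the annotated 5′ end, and no nt was covered in more than 1 mouse. Regions that were also seen in input or IgG material had been taken out of the deposited lists, and the part of that step in the low coverage of Malat1 was not tested.

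Neat1 had footprints in its 5′ part in naïve and mild EAE mice, and further downstream in the 3 severe EAE mice that had any. The gene is a single exon of 20771 nt (chr19:5824708-5845478, minus strand), and its short isoform ends at position 3172, while the long isoform, the scaffold of paraspeckles, runs on to the end. Naïve mice 1, 2 and 3 had 107, 268 and 277 covered nt. For mild EAE mice 3, 4 and 7 the values were 412, 274 and 620 nt. Severe EAE mice 1, 2, 5 and 6 had 472, 117, 455 and 0 nt. All 5 footprints of the naïve mice lay inside the short isoform. Of the 8 in mild EAE, 7 lay inside it and 1, in mouse 4, at positions 3770 to 3896. In severe EAE mouse 1 all 3 footprints lay past the short isoform, at positions 7796 to 7974, 9583 to 9769 and 15803 to 15908, and in mouse 2 the only footprint lay at 14082 to 14198. Severe EAE mouse 5 had 1 footprint past the short isoform, at 11321 to 11483, and 2 inside it. No naïve or mild EAE mouse had a footprint past position 3896, and all 3 severe EAE mice with any footprint in Neat1 did. The share of genes with such a split between severe EAE and the other mice was not computed, so how usual it is remains unknown. As a share of the covered nt of Neat1, the part past the short isoform was 0% in each naïve mouse. It was 46.4% in mild EAE mouse 4 and 0% in mice 3 and 7 of that group, while severe EAE mice 1 and 2 reached 100% and mouse 5 reached 35.8%. None of the 5 severe EAE footprints past the short isoform overlapped another, and mice 1 and 2 were among the 3 shortest lists. The position of the covered nt, on a scale of 0 at the 5′ end to 1 at the 3′ end, was 0.106 ± 0.038 in naïve (n = 3), 0.102 ± 0.041 in mild EAE (n = 3) and 0.479 ± 0.213 in severe EAE (n = 3 with a footprint). The test of position compared all EAE mice with naïve mice, and there the difference of 0.185 did not pass (exact permutation p = 0.25, adjusted p = 0.92 over 1894 genes).

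As a share of each list, Neat1 was the only member whose naïve and mild EAE mice did not overlap. Its share was 1.02 ± 0.46 nt per 10000 covered nt in naïve mice and 2.37 ± 0.29 in mild EAE (SD, n = 3 each), and the groups did not overlap (percent of genes tested whose groups did not overlap in this share, 13.5%). The exact permutation p was 0.1, the smallest that 3 against 3 mice can give, and the adjusted p was 0.74. In covered nt the mild EAE and naïve groups overlapped, at 274 nt in mild EAE mouse 4 and 277 nt in naïve mouse 3. A stretch within the short isoform was covered in all 3 mild EAE mice and in no other mouse (chr19:5843329-5843466), and another in naïve mice 2 and 3 and mild EAE mouse 7 (chr19:5843902-5843963). Both are given 5′ to 3′ on the gene's strand as RNA, to show the most widely shared Neat1 sequence, with each UAG in capitals.
Neat1 2013-2150: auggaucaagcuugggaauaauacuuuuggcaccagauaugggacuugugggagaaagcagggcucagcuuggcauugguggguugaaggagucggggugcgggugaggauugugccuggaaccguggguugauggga
Neat1 1516-1577: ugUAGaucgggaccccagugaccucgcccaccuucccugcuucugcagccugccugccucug
The first of them holds no UAG and the second holds 1. Across the genome, 4.44% of the 13272 merged regions footprinted in at least 3 mice were present in all 3 mild EAE mice and no naïve mouse, and 4 of the 91 such regions in the members were.

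**Figure D2:**
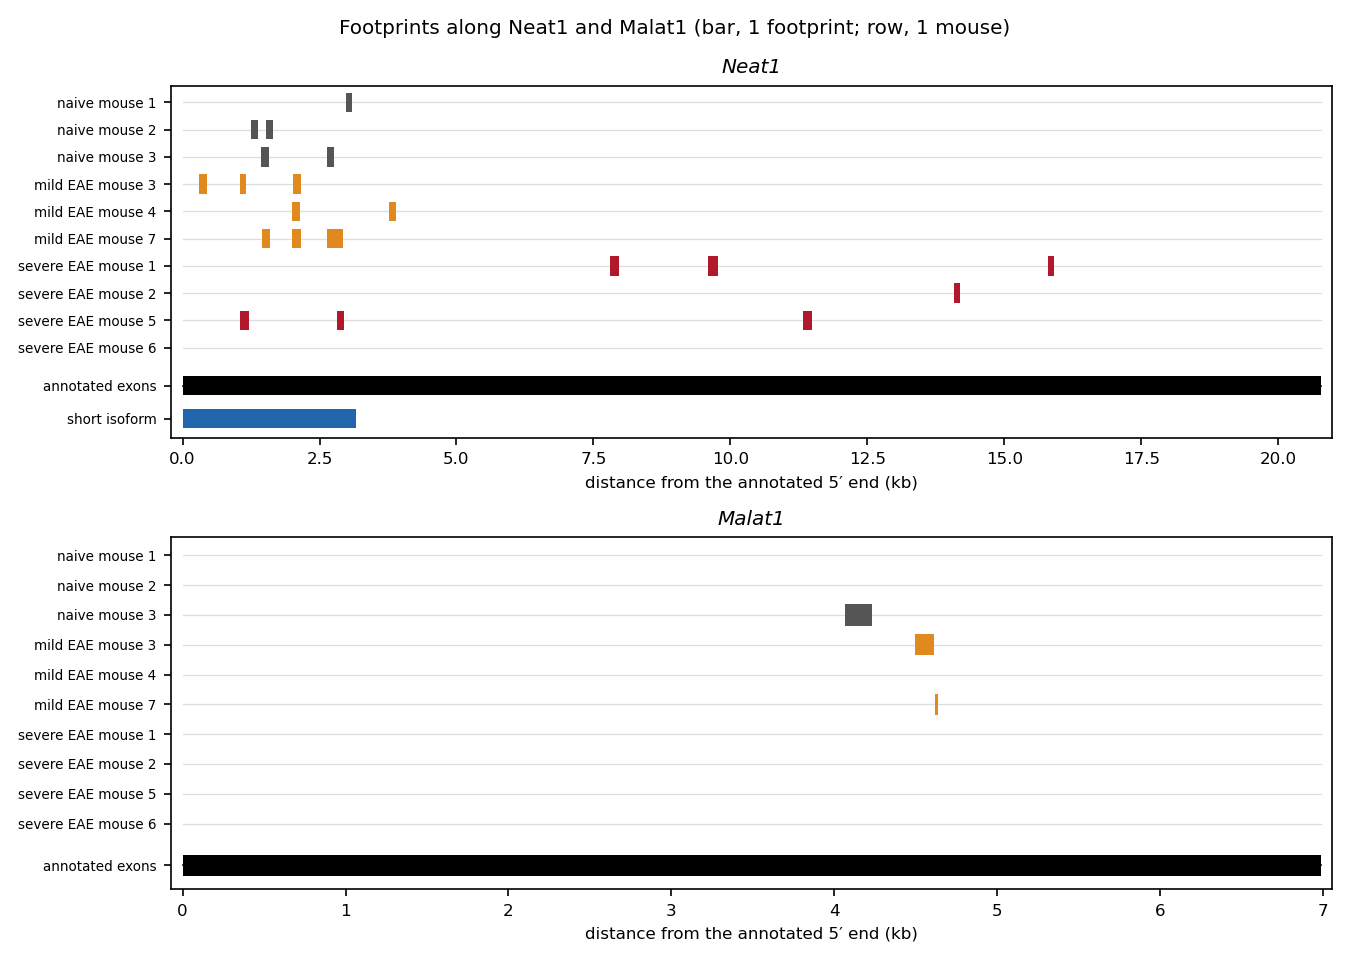
Footprints along Neat1 (top) and Malat1 (bottom), by distance from the annotated 5′ end in kb; each row is 1 mouse, each bar 1 footprint, black bars are annotated exons and the blue bar is the short isoform of Neat1, which ends at position 3172. Footprints of naïve and mild EAE mice sit at the left of Neat1, up to position 3896, and those past it are all from severe EAE mice 1, 2 and 5.

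Miat, the nuclear RNA of neurons, was footprinted in a narrower part of the gene in mild EAE. The gene (chr5:112213228-112229395, minus strand) has 6 merged exons. Its covered nt in the naïve group were 549, 219 and 678 (mice 1, 2 and 3). The mild EAE group had 180, 134 and 466 nt (mice 3, 4 and 7). Only mouse 5 of the severe EAE group had a footprint, with 1712 nt. The naïve and mild EAE groups overlapped (exact permutation p = 0.2, adjusted p = 0.92). All 33 footprints had exonic midpoints. The 14 of the naïve mice ran from position 1038 to 15064 of 16168, over 5 of the exons, while the 5 in mild EAE all lay in the last exon, from 12448 to 14875. Severe EAE mouse 5, with 14 footprints from 1299 to 15030, resembled the naïve spread. The mean position was 0.613 ± 0.086 in naïve mice (n = 3), 0.858 ± 0.005 in mild EAE (n = 3) and 0.672 in severe EAE mouse 5, so that all 4 EAE mice with a footprint lay above the 3 naïve mice. Of the 7 members that could be tested for position it was the only 1 whose groups did not overlap (percent of the 1894 genes tested whose groups did not overlap, 8.5%). Its exact permutation p for 4 EAE against 3 naïve mice was 0.057 and its adjusted p 0.88. No member passed an unadjusted p of 0.05 for position, which 4.12% of genes tested did. With the midpoints of footprints in place of covered nt the Miat groups overlapped and the exact permutation p was 0.086. The most shared stretch, covered in naïve mouse 1, all 3 mild EAE mice and severe EAE mouse 5 (chr5:112215427-112215535), lies in the last exon and holds 3 UAG.
Miat 13861-13969: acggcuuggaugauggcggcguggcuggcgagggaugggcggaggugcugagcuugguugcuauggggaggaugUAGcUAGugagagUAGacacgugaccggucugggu
Gm26953 is annotated over 29 of the 33 Miat footprints on the opposite strand, and the lists carry no strand, so the RNA these 29 came from cannot be told apart.

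Snhg11 had overlapping covered lengths in naïve and EAE mice, and held regions footprinted in several mice of 1 group and in none of the other. The gene (chr2:158375638-158386145, plus strand, 10508 nt, annotated as protein coding in GENCODE) has 4 merged exons and encloses 2 annotated snoRNA genes, Gm25187 and Gm25129. The naïve mice, in the order 1, 2 and 3, had 844, 526 and 1206 covered nt. The mild EAE mice, in the order 3, 4 and 7, had 652, 847 and 1343 nt. For the severe EAE mice, in the order 1, 2, 5 and 6, the values were 138, 0, 2832 and 49 nt. These ranges overlapped, with severe EAE mouse 5 the highest of all. The difference between EAE and naïve means was -21.4 nt (exact permutation p = 0.98). The mean position was 0.679 ± 0.130 in naïve mice (n = 3), 0.460 ± 0.114 in mild EAE (n = 3) and 0.303 ± 0.310 in severe EAE (n = 3). The shift towards the 5′ end, -0.298, exceeded in size that of 95.5% of the 1894 genes tested, with an exact permutation p of 0.095 and an adjusted p of 0.88. Mirg, described with its locus, had a difference of -0.284 (exact permutation p = 0.23).

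The Snhg11 regions footprinted in at least 4 EAE mice and in no naïve mouse were 3, all in the 5′ part of the gene. Such regions made up 5 of the 91 member regions, the other two in Meg3 and Rian, and 4.85% of the 13272 merged regions footprinted in at least 3 mice across the genome. Positions 444 to 689, an annotated exon, were covered in all 3 mild EAE mice and in severe EAE mouse 5, and in 3 of those 4 mice the footprint was that exact interval. Positions 149 to 251, up to the end of the first exon, were footprinted in mild EAE mice 4 and 7 and severe EAE mice 5 and 6. Positions 2584 to 2719 were covered in mild EAE mice 3, 4 and 7 and severe EAE mice 1 and 5. This last stretch holds the snoRNA Gm25187 (chr2:158378222-158378354, 133 nt, positions 2585 to 2717), and in 4 of the 5 mice the footprint ended within a few nt of the snoRNA on both sides, with lengths of 137, 138 and 139 nt. In severe EAE mouse 5 it ran on to position 2873. No naïve mouse had a nt covered there. Of the merged regions across the genome, 0.633% were present in at least 5 EAE mice and in no naïve mouse, and the snoRNA region was the only 1 of the 91 in the members. Of the 1558 snoRNA and small Cajal body RNA genes annotated in the genome, 2 were covered over at least 90% of their length in at least 5 EAE mice and no naïve mouse (0.128%), Gm25187 and Snora78. Most of the 1558 could not show this pattern, as 169 were covered to that extent in any mouse and 38 in at least 3 mice. In at least 3 EAE mice and no naïve mouse, 20 were. The counts of genes covered to that extent per mouse overlapped between groups, at 20 to 35 (naïve), 21 to 62 (mild EAE) and 3 to 67 (severe EAE). Gm25129, which has the same length as Gm25187 and 68.4% of identical positions, lies in an intron and was covered in no mouse.

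In the opposite direction, positions 5302 to 5327 were covered in all 3 naïve mice and in no EAE mouse, as footprints of 26, 27 and 43 nt that begin at the first base of the last exon. This pattern was seen in 3 of the 91 member regions, 1 each in Meg3, Snhg11 and Snhg14, and in 1.51% of merged regions across the genome. The 3′ part of the gene was shared by both groups, and positions 10337 to 10505, next to the 3′ end, were covered in all 3 naïve mice, mild EAE mouse 7 and severe EAE mouse 5. The EAE stretch that holds the snoRNA (chr2:158378221-158378356), the exon stretch (chr2:158376081-158376326), the naïve region (chr2:158380939-158380981) and the shared 3′ stretch (chr2:158385974-158386142) are given 5′ to 3′ as RNA with UAG in capitals to show stretches that several mice had in common.
Snhg11 2584-2719, EAE: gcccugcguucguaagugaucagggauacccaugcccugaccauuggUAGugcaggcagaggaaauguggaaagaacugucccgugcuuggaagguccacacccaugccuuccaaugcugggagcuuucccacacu
Snhg11 444-689, EAE: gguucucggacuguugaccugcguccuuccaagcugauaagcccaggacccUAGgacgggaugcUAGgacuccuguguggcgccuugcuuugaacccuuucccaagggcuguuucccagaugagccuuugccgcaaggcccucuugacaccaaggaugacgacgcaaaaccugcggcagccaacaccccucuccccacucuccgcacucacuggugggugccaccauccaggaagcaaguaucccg
Snhg11 5302-5344, naïve: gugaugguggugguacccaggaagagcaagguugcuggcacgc
Snhg11 10337-10505, shared: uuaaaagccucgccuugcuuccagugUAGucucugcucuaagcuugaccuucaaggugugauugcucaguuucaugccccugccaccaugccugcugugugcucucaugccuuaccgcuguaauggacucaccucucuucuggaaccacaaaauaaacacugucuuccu
The naïve region holds no UAG, while the EAE stretches hold 1 and 2 and the shared stretch holds 1.

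**Figure D3:**
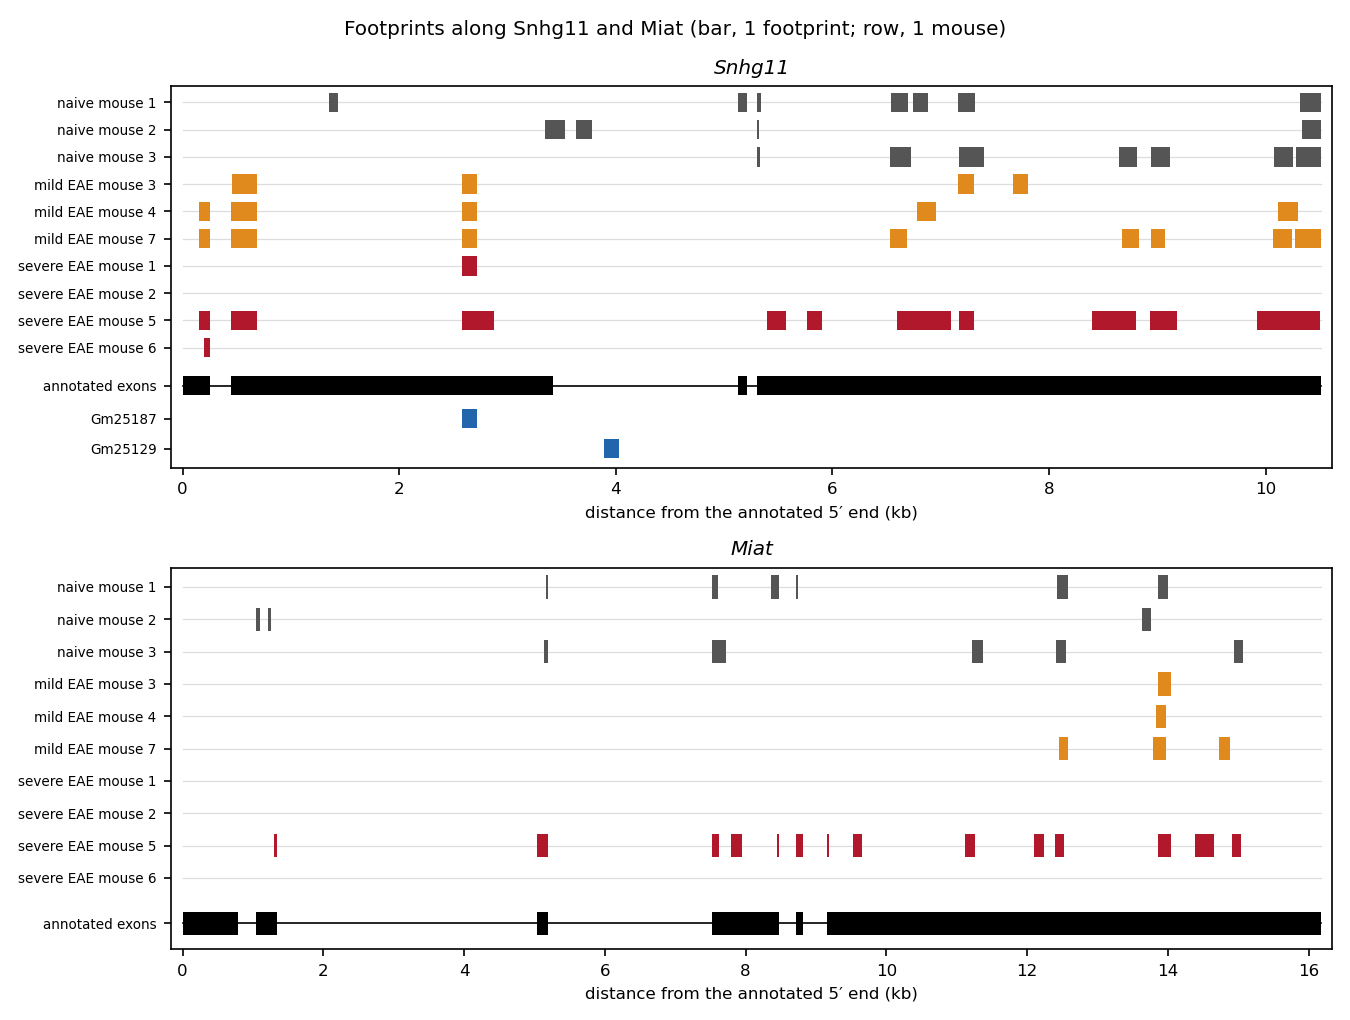
Footprints along Snhg11 (top) and Miat (bottom), by distance from the annotated 5′ end in kb; each row is 1 mouse, each bar 1 footprint, black bars are annotated exons and blue bars the snoRNA genes inside Snhg11. Footprints of Snhg11 at positions 149 to 251, 444 to 689 and 2583 to 2720, over Gm25187, come from 4, 4 and 5 of the 7 EAE mice and from no naïve mouse, and mild EAE rows of Miat are filled in the last exon only.

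Meg3 was the only member footprinted in all 10 mice, including severe EAE mouse 2, whose list held 145 genes. Of the 6731 genes tested, 0.282% were footprinted in all 4 severe EAE mice. The gene (chr12:109541001-109571726, plus strand) has 8 merged exons. Footprints covered 2986, 1022 and 2486 nt in the naïve group (mice 1, 2 and 3). They covered 1298, 2065 and 2391 nt in the mild EAE group (mice 3, 4 and 7). In the severe EAE group (mice 1, 2, 5 and 6) they covered 1179, 136, 4696 and 141 nt. The groups overlapped, and the difference between EAE and naïve was -464 nt (exact permutation p = 0.66), with -1035 nt without naïve mouse 2 and -53.1 nt without naïve mouse 1. As a share it had the other sign, at 9.93 ± 4.42 nt per 10000 in naïve mice (n = 3), 11.4 ± 5.58 in mild EAE (n = 3) and 30.4 ± 19.8 in severe EAE (n = 4), with an exact permutation p of 0.26 for EAE against naïve, and the high shares of 55.8 and 35.7 were those of severe EAE mice 2 and 1. Exonic sequence made up 85.2% of the naïve covered nt, 93.5% of the mild EAE and 85.8% of the severe EAE covered nt. The covered nt lay mainly in the long last exon and in the exon that holds positions 4944 to 5027, and the mean position was 0.639 in both naïve and mild EAE mice (± 0.004 and ± 0.083, n = 3 each) and 0.535 ± 0.251 in severe EAE (n = 4).

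Meg3 footprints recurred between mice of each group, in severe EAE only between mouse 5 and another mouse. Severe EAE mice 1, 2 and 6 had 0 nt of Meg3 in common with each other. A stretch shared by a group was one of more than 1 nt covered in at least 2 of its mice. Meg3 had 10 in naïve, 10 in mild EAE and 7 in severe EAE. Only 3 members, Meg3, Snhg11 and Snhg14, had a shared stretch in severe EAE, where 13% of all genes tested had one, against 40.3% in naïve and 48.3% in mild EAE. Of the 7 severe EAE stretches, 5 overlapped a mild EAE stretch and 1 a naïve stretch. The severe EAE stretches at positions 23923 to 24038, 25173 to 25284 and 25365 to 25666 were each covered in severe EAE mice 1 and 5, were also covered in mild EAE mouse 3 and in mild EAE mouse 7 or 4, and were covered in no naïve mouse. The share of stretches with this pattern over all genes was not computed. By merged regions, 1 of the 13 in Meg3 footprinted in at least 3 mice was present in at least 4 EAE mice and no naïve mouse. Across the genome 4.85% of such regions were. The region at positions 22050 to 22265 held a footprint of each naïve mouse and of no EAE mouse. The pair of stretches covered in 6 mice (chr12:109545944-109546027 and chr12:109571438-109571485) and the naïve region (chr12:109563050-109563265) read as follows, with UAG in capitals.
Meg3 4944-5027, 6 mice: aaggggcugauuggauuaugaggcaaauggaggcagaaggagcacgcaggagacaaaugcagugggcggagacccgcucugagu
Meg3 30438-30485, 6 mice: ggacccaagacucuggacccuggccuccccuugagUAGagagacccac
Meg3 22050-22265, naïve: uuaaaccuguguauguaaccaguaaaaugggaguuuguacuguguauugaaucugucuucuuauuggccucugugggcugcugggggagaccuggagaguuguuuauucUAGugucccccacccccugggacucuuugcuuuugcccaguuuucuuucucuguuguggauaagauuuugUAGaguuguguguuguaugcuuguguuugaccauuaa
The stretch at 4944 to 5027 was covered in 5 EAE mice and naïve mouse 1, and that at 30438 to 30485, next to the 3′ end, in naïve mice 1 and 2, all 3 mild EAE mice and severe EAE mouse 5. The lincRNA Gm26906 on the opposite strand shares 13 of the 98 Meg3 footprints.

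Rian, the snoRNA host of the same locus, had most of its footprints at exon ends and few in snoRNA genes. The gene (chr12:109603940-109661716, plus strand, 57777 nt) has 19 merged exons. Coverage was 2188 nt in naïve mouse 1, 918 nt in mouse 2 and 1638 nt in mouse 3. It was 1308 nt in mild EAE mouse 3, 422 nt in mouse 4 and 2089 nt in mouse 7. Severe EAE values were 284, 0, 2497 and 133 nt for mice 1, 2, 5 and 6. The groups overlapped (EAE minus naïve, -619 nt, exact permutation p = 0.33; -951 nt without naïve mouse 2 and -316 nt without naïve mouse 1), and by share the means were 7.27 nt per 10000 in naïve mice and 7.32 in EAE. Of 110 footprints, 66 (60%) began or ended exactly at the end of an annotated exon and 27 matched a whole exon at both ends, whereas 48.3% of all footprints in the genome had such an exon end. The lists were made from contigs aligned across splice junctions. Only 2 footprints touched a snoRNA gene, of the 13 that Rian encloses. Per mouse, the share of Rian footprints with an exon end was 12.5% to 65% in the naïve group and 60% to 86.7% in the mild EAE group, and it was 60.9% in severe EAE mouse 5. The groups overlapped, and over all footprints of the same mice the share was 30% to 46.6% (naïve), 47.8% to 65.9% (mild EAE) and 51.7% (severe EAE mouse 5). The footprints of severe EAE mice 1 and 6 in Rian, 3 in all, were intronic, at positions 5918 to 6050, 6254 to 6386 and 6790 to 6940, and the first of these overlapped a footprint of naïve mouse 3 and the second one of naïve mouse 2.

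Several Rian regions recurred from mouse to mouse. The region at positions 50405 to 50493 and the exon at 51910 to 51995 were footprinted in naïve mice 1 and 3 and all 3 mild EAE mice, and in no severe EAE mouse. The share of regions across the genome with this pattern was not computed. Severe EAE mice 1, 2 and 6 had footprints in 19.5%, 1.87% and 6.86% of the genes tested, so most genes had none in those lists. Positions 31477 to 31518 were covered in all 3 naïve mice, mild EAE mice 3 and 4 and severe EAE mouse 5 (chr12:109635416-109635457). A region at 13257 to 13410, around a short exon, was footprinted in all 3 mild EAE mice and severe EAE mouse 5 and in no naïve mouse (chr12:109617196-109617349). Both sequences are given with UAG in capitals, the first as the most shared of the gene and the second as its region absent from naïve mice.
Rian 31477-31518: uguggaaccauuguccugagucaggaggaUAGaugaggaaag
Rian 13257-13410: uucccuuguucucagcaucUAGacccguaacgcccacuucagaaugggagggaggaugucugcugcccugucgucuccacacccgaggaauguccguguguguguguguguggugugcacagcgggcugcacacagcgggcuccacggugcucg

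Mirg, the microRNA host, was footprinted in naïve and mild EAE mice and, among severe EAE mice, only in mouse 5. The gene (chr12:109729764-109749460, plus strand) has 14 merged exons. Naïve mouse 1 had 801 covered nt, mouse 2 had 132 and mouse 3 had 424. Mild EAE mouse 3 had 534 nt, mouse 4 had 375 and mouse 7 had 494. Severe EAE mouse 5 had 292 nt, and mice 1, 2 and 6 had 0. All severe EAE values lay below all mild EAE values, a pattern that 2.88% of genes tested had in covered nt. The difference of -395 nt had an exact permutation p of 0.057 in covered nt and 0.029 as a share, the smallest that 4 against 3 mice can give, with adjusted p of 1 and 0.46. The shares did not overlap either (percent of genes tested without overlap, 8.85%). Of the genes tested, 6.17% had an unadjusted p under 0.05 in that share comparison. Severe EAE against naïve gave -379 nt (exact permutation p = 0.086, adjusted p = 0.81), and mild EAE against naïve 15.3 nt (exact permutation p = 1). The lists without a Mirg footprint were short: severe EAE mice 1, 2 and 6 had footprints in 19.5%, 1.87% and 6.86% of the genes tested, and 32% of those genes were footprinted in all 3 mild EAE mice. The part of list length in the Mirg difference was not tested.

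Mirg footprints ended at exon ends even more often than those of Rian, in 29 of 34 (85.3%), and none matched a whole exon. Positions 1509 to 1587 and 1954 to 1974 were covered in all 3 mild EAE mice, naïve mouse 1 and severe EAE mouse 5, and the stretch at 19341 to 19388 in all 3 naïve mice, mild EAE mice 3 and 4 and severe EAE mouse 5 (chr12:109749104-109749151). The latter, the most shared of the gene, reads as follows and holds no UAG.
Mirg 19341-19388: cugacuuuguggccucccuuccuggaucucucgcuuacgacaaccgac
Of the 26 mature microRNAs inside Mirg, 2 were touched by a footprint, miR-668-5p in mild EAE mouse 7 and miR-410-3p in naïve mouse 3, and in Meg3 2 of 3 were, miR-770-5p and miR-770-3p, in naïve mouse 3. None of the 6 mature microRNAs inside Rian was covered.

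**Figure D4:**
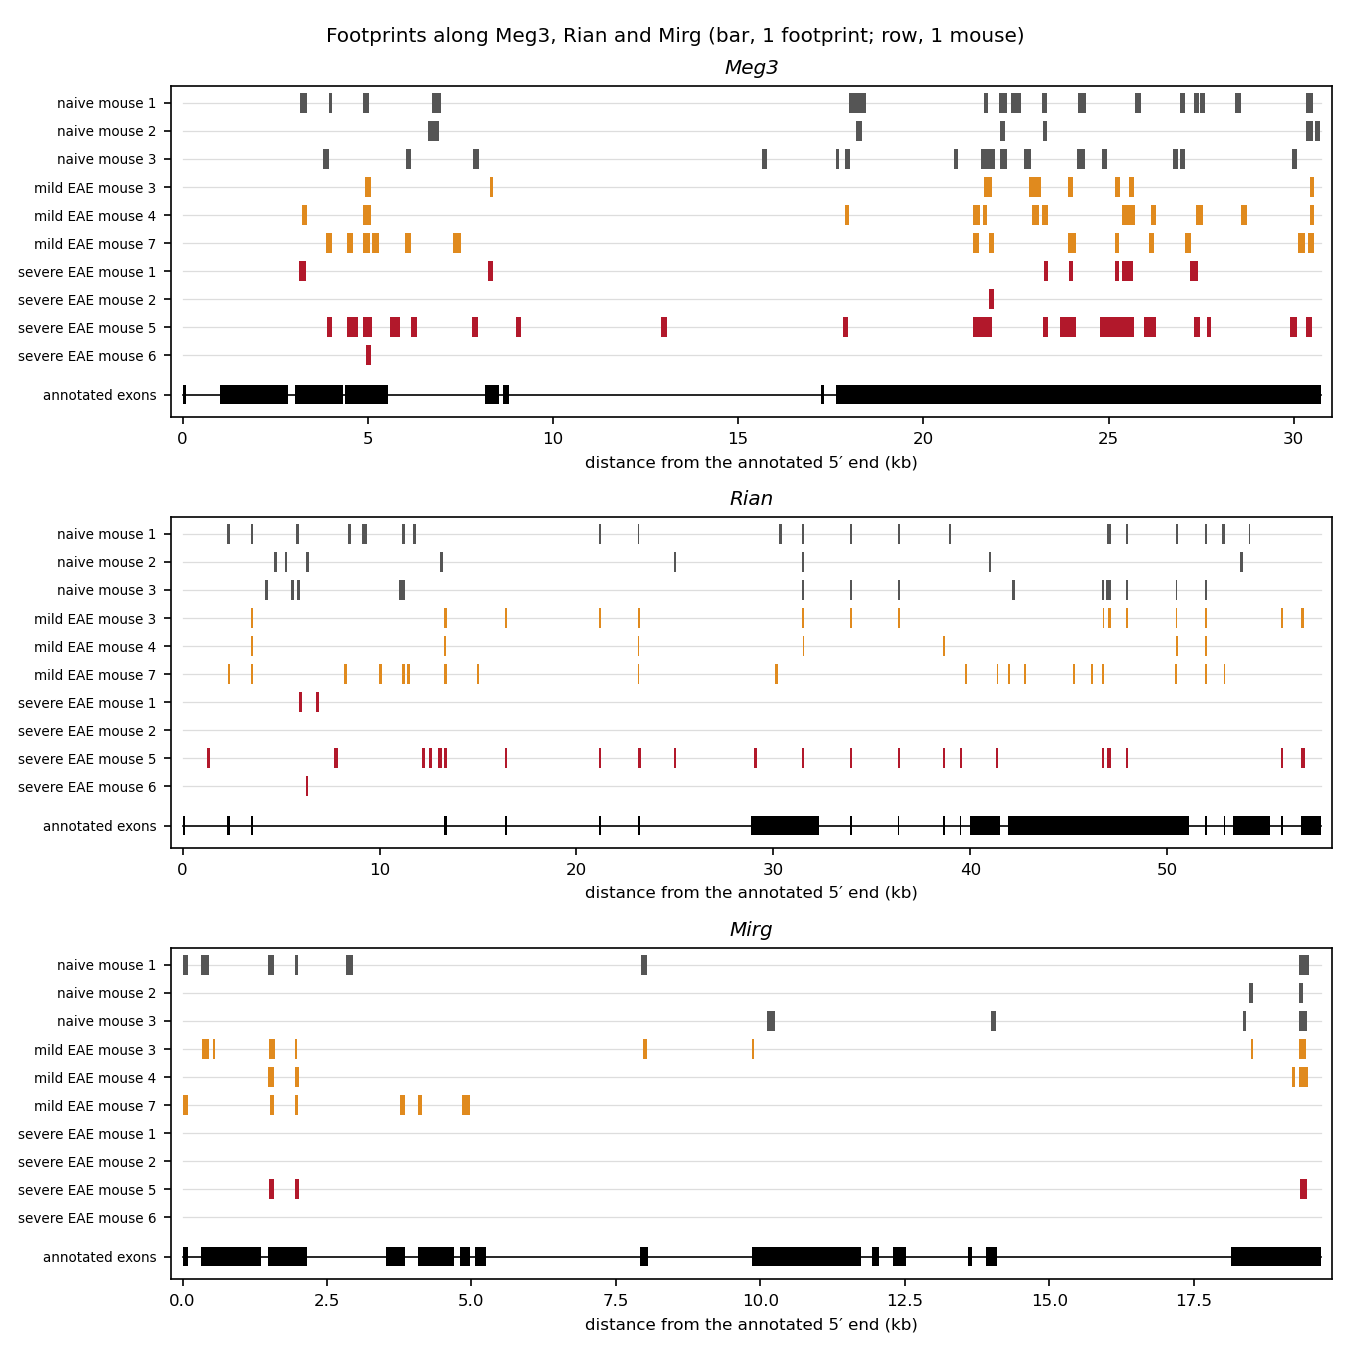
Footprints along Meg3, Rian and Mirg of the imprinted Dlk1-Dio3 locus, by distance from the annotated 5′ end in kb; each row is 1 mouse, each bar 1 footprint and black bars are annotated exons. Footprints of Meg3 appear in all 10 rows and crowd into the long last exon, several regions of Rian and Mirg recur in naïve and mild EAE rows, and Mirg is empty in severe EAE mice 1, 2 and 6.

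Snhg14 carried more covered nt than the other members together and ranked 6 of all genes by covered nt summed over mice. The gene spans 667836 nt (chr7:59307924-59975759, minus strand), and 583 of the 928 member footprints lay in it. The covered nt of naïve mice 1, 2 and 3 were 13006, 5710 and 15173. Those of mild EAE mice 3, 4 and 7 were 4123, 3836 and 15916. Those of severe EAE mice 1, 2, 5 and 6 were 1949, 0, 18747 and 557. The groups overlapped, with a difference of -4849 nt between EAE and naïve (exact permutation p = 0.36) that ranged from -7643 nt without naïve mouse 2 to -2911 nt without naïve mouse 3, and by share the means were 51.9 ± 21.6 nt per 10000 in naïve mice (n = 3), 37.7 ± 13.9 in mild EAE (n = 3) and 44.4 ± 31.7 in severe EAE (n = 4). It was footprinted mainly in introns, with 542 of 583 midpoints outside exons. It encloses 208 snoRNA genes, which make up 2.62% of its span and 7.04% of its covered nt. A footprint touched 60 of those genes, 53 of them in a single mouse and 7 in 2 mice.

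Along Snhg14 the footprints were spread over most of the transcript. Summed over all mice, the bins with the most covered nt were those at 640 to 660 kb from the 5′ end (12% of all covered nt) and at 220 to 240 kb (9.24%). They were not high in every mouse, as naïve mouse 2 had 0 nt in the bin at 220 kb and mild EAE mouse 3 and severe EAE mice 1, 2 and 6 had 0 nt in the bin at 640 kb, and severe EAE mouse 5 had 1827 nt at 600 to 620 kb and 1292 nt at 220 to 240 kb. The annotated 3′ end overlaps Ube3a, the ubiquitin ligase gene that the transcript silences on the paternal chromosome in neurons. Ube3a shares 17 of the Snhg14 footprints, all past position 664248, and its whole span held 5274 to 19868 nt (naïve), 2821 to 18732 nt (mild EAE) and 0 to 21399 nt (severe EAE). Without strand these 17 cannot be given to either RNA. Much of Snhg14 is repeated: 62.4% of its span lies in 50-mers found more than once within it, and so did 71.6% of its covered nt, with 449 of 583 footprints holding such sequence, against 0 footprints in the other 7 members. The copy that a repeated footprint came from is uncertain. A pair of footprint regions of 243 nt each, at positions 608895 to 609137 and 610765 to 611007, appeared in the same 3 mice, mild EAE mouse 7 and severe EAE mice 1 and 5. Shared stretches numbered 31 in naïve, 25 in mild EAE and 3 in severe EAE, and 3 of those in naïve overlapped one in mild EAE. The most shared stretch (chr7:59625628-59625719) was covered in all 3 naïve mice, mild EAE mice 3 and 7 and severe EAE mouse 5, and holds 8 UAG in 92 nt.
Snhg14 350041-350132: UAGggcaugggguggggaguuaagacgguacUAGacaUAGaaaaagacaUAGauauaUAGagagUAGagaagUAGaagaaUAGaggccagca

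**Figure D5:**
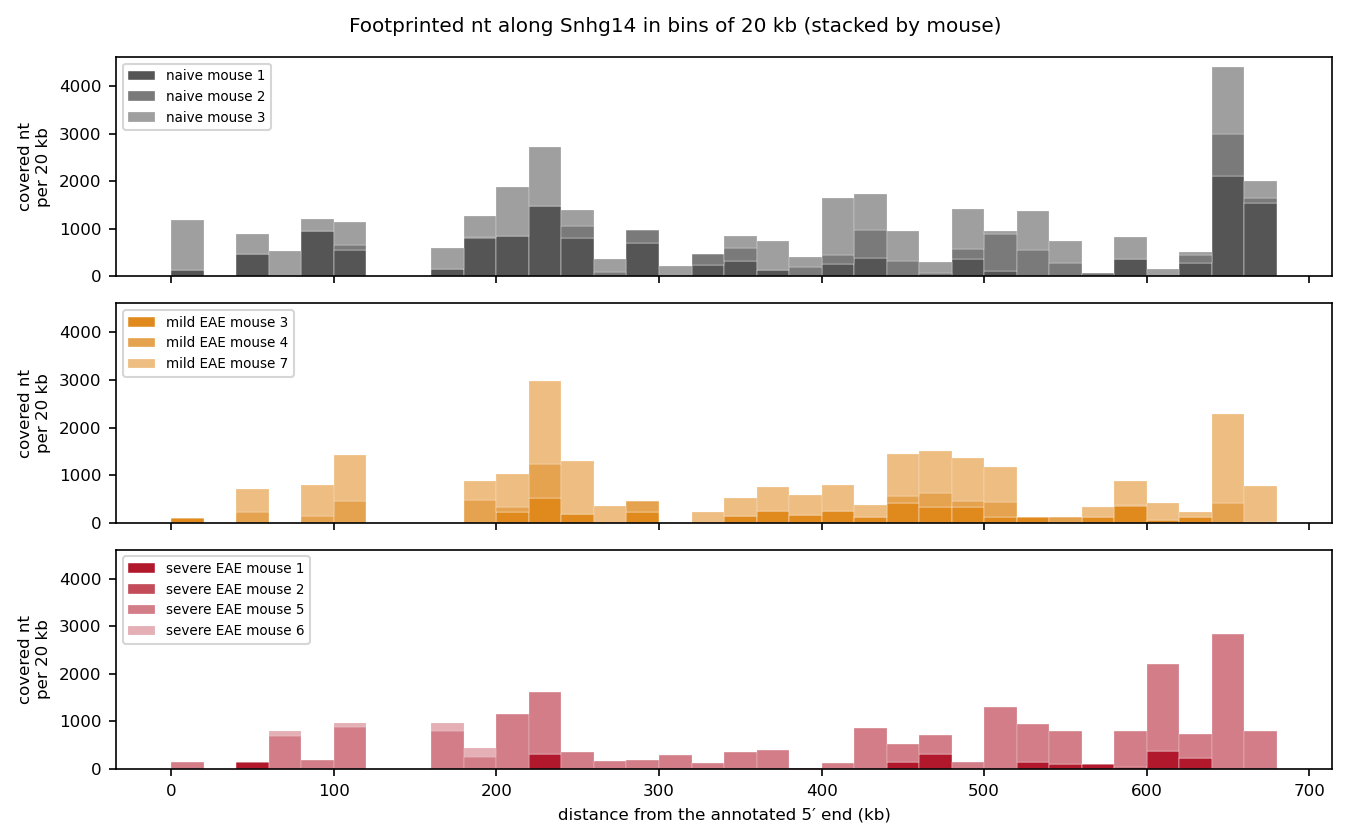
Covered nt of Snhg14 in bins of 20 kb by distance from the annotated 5′ end, stacked by mouse in naïve (top), mild EAE (middle) and severe EAE (bottom) mice. Summed over all mice, coverage was highest at 640 to 660 kb and at 220 to 240 kb, in severe EAE mouse 5 the bin at 600 to 620 kb was above that at 220 to 240 kb, and nearly all of the severe EAE coverage is from mouse 5.

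Over the 8 genes, 59 stretches were shared by at least 2 naïve mice, 52 by at least 2 mild EAE mice and 12 by at least 2 severe EAE mice. Of the 59 naïve stretches, 9 overlapped a mild EAE stretch and 1 a severe EAE stretch, and 9 of the 52 mild EAE stretches overlapped a naïve one. Of the 12 severe EAE stretches, 7 overlapped a mild EAE stretch. The largely repeated Snhg14 gave 31 of the naïve and 25 of the mild EAE stretches. How often stretches of different groups overlap over all genes was not computed, so these counts do not show sites particular to a group. Leaving out severe EAE mouse 5 left 0 stretches in severe EAE, so each of the 12 rests on that mouse, the outlier named by the authors.

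UAG was common in the footprints of the members and elsewhere. Among footprints of 100 to 200 nt, 94.4% of 535 in the members and 86.6% of 74536 in the genome held UAG on either strand, and 74.8% and 66.4% held AGGU on either strand. Motifs this short, sought on both strands of such windows, occur often by chance. No share for sequence without footprints was computed, so these percentages do not show binding to either motif. Of all 928 member footprints, 583 lay in the largely repeated Snhg14. In the exons of the members, the sequence covered in any mouse held 9.93 UAG per 1000 nt in Rian and 6.26 in Mirg, below the 17.3 and 10.4 of the exon sequence that no mouse covered. Malat1 (13.2 against 17.2) and Miat (11 against 13.6) lay on the same side. Covered sequence was above uncovered sequence in Snhg11 (14.5 against 10.8), and close to it in Neat1 (11.7 against 11.4), Meg3 (12.8 against 12.1) and Snhg14 (12.8 against 12.8). AGGU, spelled on the gene's strand, was denser in covered exon sequence in Rian (5.89 against 2.80 per 1000 nt), Miat (4.73 against 3.55), Snhg14 (4.81 against 3.62), Mirg (4.18 against 3.25) and Malat1 (6.60 against 5.84, from 2 matches in the covered sequence). It was less dense in Meg3 (3.91 against 5.32), Neat1 (3.75 against 4.88) and Snhg11 (4.93 against 5.33). Counts are letters in a window and overlap between the motifs was allowed.

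Other long noncoding RNAs were set beside the members from a list of 46 names, of which 39 were annotated and 21 were footprinted in at least 3 mice. Of the 21, 4 had an unadjusted exact permutation p under 0.05 in covered nt, all lower in EAE, and 0 passed adjustment. Over all 527 long noncoding RNA genes tested, 51 were lower in EAE at that level and 0 higher. The same held over all 6731 genes tested, where 415 were lower at that level and 1 was higher. By share, 513 of the 6731 were lower and 0 higher, so this direction was not particular to long noncoding RNAs. Kcnq1ot1, an imprinted nuclear RNA, had 9284 to 17235 nt in naïve mice and 0 to 17873 nt in EAE (exact permutation p = 0.25). Airn, of the imprinted Igf2r locus, had 1324 to 2154 nt in naïve mice and 0 to 2282 nt in EAE (exact permutation p = 0.12). As a share the EAE mean of Airn differed from the naïve mean by -5.82 nt per 10000, with an exact permutation p of 0.0083, the smallest that 3 against 7 mice can give, and 0.27 after adjustment. The X-linked Xist, which overlaps Tsix, had 450 to 1710 nt in naïve mice and 0 to 4414 nt in EAE (exact permutation p = 0.86). Among the 5 imprinted neighbours that were tested, 4 were lower and 1 higher in EAE, and none had p under 0.05. The 4 with the most covered nt were Ube3a, the small ribonucleoprotein gene Snrpn, Atp10a and Rtl1, and Snrpn had 83 to 932 nt in naïve mice and 0 to 1104 nt in EAE (exact permutation p = 0.53). The list of paraspeckle and speckle proteins had 13 tested genes, 8 higher and 5 lower in EAE, with none under 0.05. Srrm2, a speckle scaffold, had 1931 to 2808 covered nt in naïve mice and 0 to 5357 nt in EAE (exact permutation p = 0.8). Son, another speckle scaffold, had 561 to 1290 nt in naïve mice and 0 to 3055 nt in EAE (exact permutation p = 0.88), and Hnrnpm and the splicing coactivator Srrm1 had smaller covered lengths, with p of 0.81 and 0.49. The genes whose covered nt most resembled the sum of the members over the 10 mice, on the log2(nt + 1) scale, were Tnik, Prrc2c, Trim37, Pclo and Pcdh9, with Pearson's r between 0.966 and 0.970, below the r of 0.98 of the members with the total covered nt.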

How the data were processed

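CLIPseq was measured in spinal cord of 10 mice. Per the methods, the authors converted base calls with bcl2fastq (2.19.0.316), trimmed reads with fastp, assembled them into contigs with rnaSPAdes, aligned the contigs across splice junctions to GRCm38 with minimap2 (2.17), used bedtools to take out regions that the mouse's own input or pooled IgG material also held, and merged what was left without strand. The deposited values are other than counts: each list gives the chromosome, start and end of a footprint, with no read count, score or strand. The depth of a footprint is therefore unknown, a footprint cannot be given to a strand, and a region lost to input looks like an unbound one. The 10 input and 2 IgG libraries were not analysed here.

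Starts were read as 0-based. Of 136207 footprints, 135636 lay on GRCm38 chromosomes and 0 ran past a chromosome end. Genes were those of GENCODE M21. Covered nt of a gene is the number of nt of its span covered in a mouse, and the share divides it by the covered nt of that mouse. Groups were compared with a two-sided exact permutation test of the difference in means, over all 120, 35 or 20 splits, with Benjamini-Hochberg adjustment over 6731 genes footprinted in at least 3 mice. The position of covered nt was tested over 1894 genes footprinted in all 3 naïve and at least 3 EAE mice. The tests were tested on simulated data. Python 3.11.15, numpy 2.4.6, scipy 1.17.1, pysam 0.24.0 and matplotlib 3.10.9 were used. Sequences were read from the GRCm38 genome and microRNAs from RefSeq.

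The 8 members, the gene lists and the tests were chosen with earlier results of these data known. Genes were named by rule: the 8 members, genes that share a member footprint, the 4 genes of each list with the most covered nt, and the 5 genes most like the summed members. The mouse numbers mark different animals and pair nothing. Alternatives were the share, log2(covered nt + 1), exons only, other limits on footprint length, gene span and overlap, other filters on genes, and each mouse left out in turn. Leaving out severe EAE mice 2 and 6 together was chosen after seeing the data.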

Additional observations from a re-analysis of the deposited data

Results flagged for a closer look

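In 30 groups, each of the 4 severe EAE mice or of all 7 EAE mice, the gap between the highest or lowest mouse and the next was set against the range. Naïve mice and mild EAE mice alone were not examined in this way. The cut-off is one that normally distributed values exceed in about 1 in 20 groups. Many values here were 0, so that rate does not hold, and the 13 flags are a description only. For Mirg and Miat the other 3 severe EAE mice had 0 nt, so any covered nt in mouse 5 met the cut-off. Most of the values that stood apart belonged to severe EAE mouse 5, which had the longest list and is the outlier named by the authors. Its covered nt stood above the other 3 severe EAE mice for Rian (2497 nt), Mirg (292 nt), Miat (1712 nt), Snhg11 (2832 nt) and Snhg14 (18747 nt), and for Miat also above the other 6 EAE mice. As a share of its own list it stood apart for Mirg, at 0.705 nt per 10000 among severe EAE mice, and for Miat, at 4.13 nt per 10000 among severe EAE mice and among all EAE mice.

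Malat1 stood apart in mild EAE mouse 3 among the EAE mice, with 114 nt or 0.736 nt per 10000, where 5 of the other 6 mice had 0. Neat1 had 48.0 nt per 10000 in severe EAE mouse 2, from 1 footprint in a list of 209. Snhg11 had 0 nt per 10000 in the same mouse, below the other 6 EAE mice.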

How the results depend on the processing

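No gene passed adjustment for covered nt in EAE against naïve under any of 21 alternatives, and 137 to 762 genes had an unadjusted p under 0.05, the lowest count with exons only and the highest without severe EAE mouse 5. The count was 207 without severe EAE mice 2 and 6. The number of possible splits limits the smallest p under each alternative too, so 0 passing there is not a measure of robustness. The members' differences in covered nt kept their sign under 19 of 19 alternatives for Mirg and Snhg14, 18 for Malat1, Neat1 and Rian, 17 for Meg3 and Miat, and 11 for Snhg11. The sign turned by share for Meg3 (12.3 nt per 10000), Rian (0.0467) and Snhg11 (0.827), on the log2 scale for Neat1 (-0.41), with footprints in 1 annotated gene only for Miat (36.9 nt), and with exons only for Snhg11 (63.3 nt). Without severe EAE mice 2 and 6 it turned for Meg3 (161 nt), Miat (16.4 nt) and Snhg11 (304 nt). Leaving out 1 mouse gave -64.1 to 19.4 nt for Malat1, positive only without naïve mouse 3, -1035 to -53.1 nt for Meg3 (without naïve mouse 2 and mouse 1), -951 to -316 nt for Rian (without the same mice), -370 to -35.9 nt for Mirg (again those mice), -352 to -28 nt for Miat (without severe EAE mouse 5 and naïve mouse 3), 63.2 to 174 nt for Neat1 (without naïve mouse 1 and severe EAE mouse 6), -7643 to -2911 nt for Snhg14 (without naïve mouse 2 and mouse 3), and -354 to 152 nt for Snhg11, positive without naïve mouse 3, mild EAE mouse 3 or severe EAE mouse 1, 2 or 6. Without severe EAE mouse 5 the difference for Miat was -352 nt, the only setting in which a member had an unadjusted exact permutation p under 0.05 (p = 0.036, and 0.036 to 1 over all alternatives). Meg3 also moved by over 1.5 times without naïve mouse 3 (-303 nt) or severe EAE mouse 2, 5 or 6 (-203, -963 and -204 nt). The cause of these changes was not tested. Shared stretches with 1 mouse left out numbered 14 to 49 in naïve (14 without mouse 1, 18 without mouse 3), 25 to 30 in mild EAE (25 without mouse 4 or 7, 30 without mouse 3) and 0 to 11 in severe EAE (0 without mouse 5, 3 without mouse 1), and 0 were covered in at least 3 severe EAE mice. The replicate block, which set naïve and severe EAE mice numbered 1 and 2 against each other although the numbers mark different animals, gave severe minus naïve values of 0 nt for Malat1, 107 for Neat1, -1346.5 for Meg3, -1411 for Rian, -466.5 for Mirg, -384 for Miat, -616 for Snhg11 and -8383.5 for Snhg14, with no test. The lists hold no depth, so a gene without a footprint in severe EAE mouse 2 or 6 has no measured lower level.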
